A study of Sus scrofa with 15 samples.

Results

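The complement system is a cascade of plasma proteins, most of them made by hepatocytes, together with the receptors that read its products on immune cells. The classical pathway starts with C1q bound to antibody or to a cell surface, the lectin pathway with sugar-binding proteins such as mannose-binding lectin, and the alternative pathway with C3 that activates slowly by itself. All of them meet at C3, whose cleavage marks the target, and at C5, whose cleavage starts the membrane attack complex of C5b, C6, C7, C8 and C9. Soluble and membrane-bound regulators limit the cascade on the host's own cells. Several complement proteins are known as acute-phase proteins of the liver, which makes them of interest in liver after lipopolysaccharide (LPS), a component of the outer membrane of Gram-negative bacteria.

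The 36 genes described here were chosen by symbol, as complement components, regulators and receptors. No measured value enters that rule, although earlier results of these data were known when it was written. Of these, 27 have a row in the table of 31908 genes, and all 27 passed the filter on low counts that left 12774 genes. CFHR5, CD46, CD55, CD59, ITGAX and CR2 are not paired with an identifier in the gene names used, and the identifiers of C1R, C1S and C5AR1 are not rows of the table, so these 9 genes were not analysed here. All 3 membrane regulators of the list are among them.

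The libraries came from the livers of growing male Duroc x Large White x Landrace piglets. The CON group had received sterile saline, and the LPS group LPS at 80 μg/kg into the peritoneal cavity, and livers were collected after 4 h. Both groups are represented by 3 libraries of polyadenylated RNA, fragmented and kept as the input fraction of an m6A immunoprecipitation experiment. The libraries made with the m6A antibody were not analysed here. The labels do not say that each library is a separate animal, so the p-values measure the spread between these libraries. The comparison asks how the liver's complement transcripts stood 4 h after LPS.

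Libraries of the CON group held 5927348 to 10351491 counts and those of the LPS group 4348478 to 19967417. The liver label was checked against 10 hepatocyte genes, of which 9 were above 100 CPM (a gene's count scaled to library size) in every library, while the row matched to SERPINA1 held 1.23 to 7.20 CPM. LPS replicate 3 stood apart in scaling, with a normalization factor of 0.735 against 0.979 to 1.11 in the other libraries. The lowest correlation between libraries of a group was 0.947 among CON and 0.858 among LPS libraries, on the scale of log2(CPM + 0.5) over the tested genes. LPS replicate 2 was closer to the CON libraries than to its own group. It correlated at 0.928, 0.948 and 0.949 with CON replicates 1, 2 and 3, and at 0.914 and 0.858 with LPS replicates 1 and 3.

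Saline-treated liver held complement transcripts over a wide range of levels. On the scale of CPM per kilobase of exon, which allows genes of different length to be compared, C3, the central component, had the highest level of the 27 genes in the CON group at 3054 ± 120.4 (SD, n = 3). VTN (vitronectin, which blocks insertion of the membrane attack complex) followed at 2622 ± 152, CLU (clusterin, with a like inhibitory role) at 2482 ± 117, and SERPING1 (the C1 inhibitor) at 1583 ± 157. The CON libraries of C3 did not overlap those of VTN, and those of CLU did not overlap those of SERPING1, whereas VTN and CLU overlapped. These 4 genes together held between 82.8% and 87.5% of the summed CPM of the 27 genes in each library.

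The 3 chains of C1q, which macrophages are known to make, came next, with C1QC at 397 ± 78.4, C1QB at 274 ± 108 and C1QA at 232 ± 74.0 CPM per kilobase. Genes of the membrane attack complex and of the lectin and alternative pathways, with the regulators CFI and C4BPA, filled the middle of the order, from C8A at 206 ± 24.8 and C8G at 148 ± 38.6 down to C7 at 22.6 ± 4.31. The lowest levels were those of C3AR1 at 6.42 ± 1.05, C2 at 6.17 ± 1.72, MASP1 at 3.61 ± 0.406, ITGAM at 1.39 ± 0.732, C5AR2 at 1.24 ± 0.0709 and C9 at 1.10 ± 0.903. Of the 26 pairs of neighbours in this order, 19 overlapped between CON libraries, so most neighbouring places do not differ beyond the spread. In the LPS group the means were 2862 CPM per kilobase for C3, 2745 for CLU and 2308 for VTN, and the libraries of all 3 genes overlapped.

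**Figure D1:**
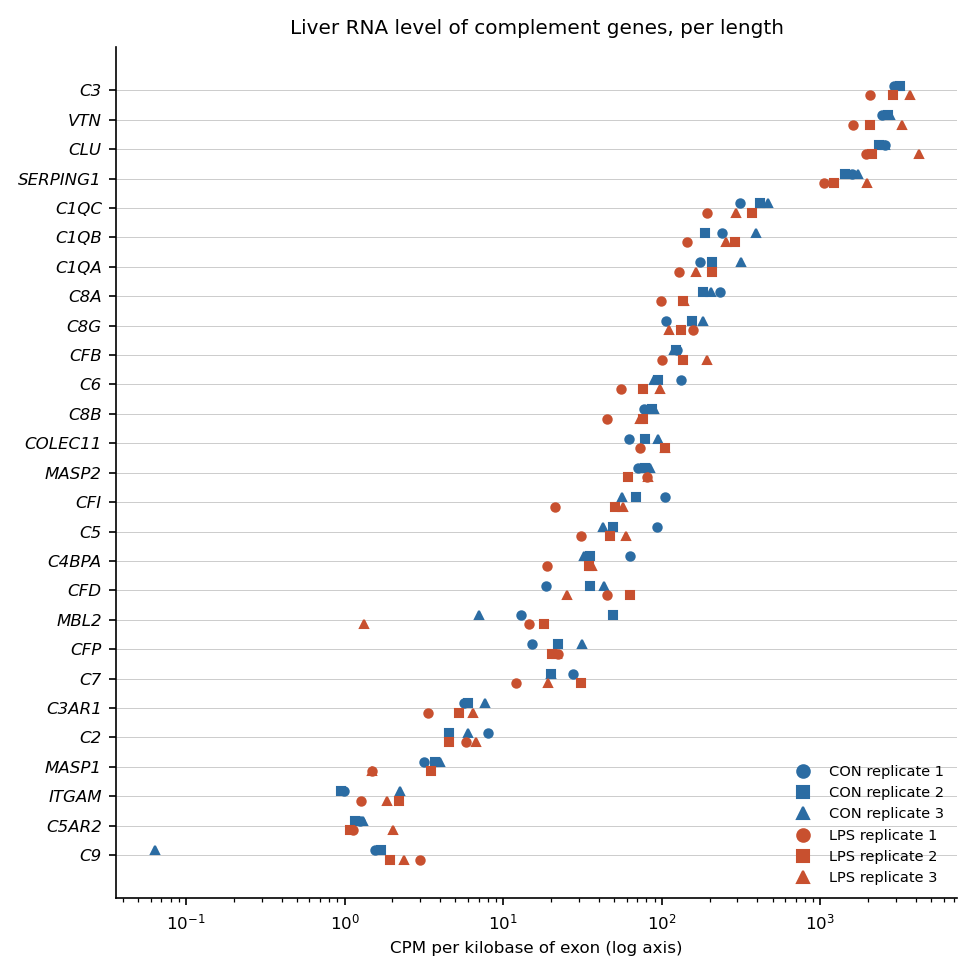
Level of the 27 complement genes in CPM per kilobase of exon (log axis), ordered by the mean of the CON group. Each point is a library, with CON replicates in blue and LPS replicates in red; C3, VTN, CLU and SERPING1 lie apart from the other genes in both groups.

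The rows of C2, CFB and C9 count reads that cannot be assigned cleanly. Of the 2945 exon bases of C2, 80.8% also belong to the exons of CFB on the same strand, and 39.6% of the exon bases of CFB are shared with C2 and 37.8% with NELFE on the opposite strand. For C9, 53.8% of 3126 exon bases are shared with DAB2 on the same strand. The sources used here do not say how reads in such bases were counted, so the values of C2, CFB and C9 are uncertain. The row of ITGAM, a chain of complement receptor 3, is also unusually long, with 16396 exon bases on chromosome 3, and whether it takes in reads of a neighbouring gene was not tested. The same was not tested for MASP1, with 13687 exon bases, or for CRP, a gene treated below, with 9774. A level per kilobase depends on these lengths.

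After LPS, none of the 27 genes was called by edgeR's quasi-likelihood test, for which a call needed an adjusted p under 0.05 and more than 1.5-fold change. That test called 7 of the 12774 genes, or 0.0548%, so a list of this size had little room for a call. At an unadjusted p below 0.05, C8A was lower, where 6.33% of all genes were, and no member was higher, where 6.18% of all genes were. DESeq2, which called 404 of the 12774 genes, and limma-voom, which called 2, called no member either. On the fitted log2 scale 20 of the 27 genes had lower values in the LPS group and 7 had higher ones. The median was -0.16, and -0.34 with 22 lower when libraries were scaled to total counts, which moved the median of all genes to -0.12. With TMM the values ran from -1.03 to 1.16, whereas 49.5% of all tested genes were lower and their median was 0.01. The 27 genes took 4.03%, 4.07% and 3.86% of all counts in the CON libraries and 2.68%, 3.73% and 3.43% in the LPS libraries, so this share of total counts was lower in every LPS library. With TMM that did not hold. The summed CPM of the 27 genes was then 25392, 33536 and 46780 in LPS replicates 1, 2 and 3, against 37130 to 39506 in the CON libraries. Scaled to total counts, all LPS values lay below all CON values in C6, C8A, SERPING1, C3AR1 and VTN, as in 10.3% of all tested genes, and above them in no member, against 4.81% of all tested genes. In bulk liver, fewer cells of a type and less RNA per cell cannot be told apart.

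The intervals show how much change these libraries could still hold. The 95% interval of the log2 fold change lay within 2-fold in either direction for 11 of the 27 genes, a share of 40.7% against 21.4% of all tested genes and 29.3% of the 1161 tested genes with a CON mean of at least 100 CPM, a level that 19 of the 27 reached. A 2-fold rise lay outside the interval for 22 of the 27, or 81.5%, against 56.2% of all tested genes and 64.5% of those 1161. For the other genes a change of 2-fold in at least 1 direction was within the interval, so a p that missed the threshold does not show equal levels.

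**Figure D2:**
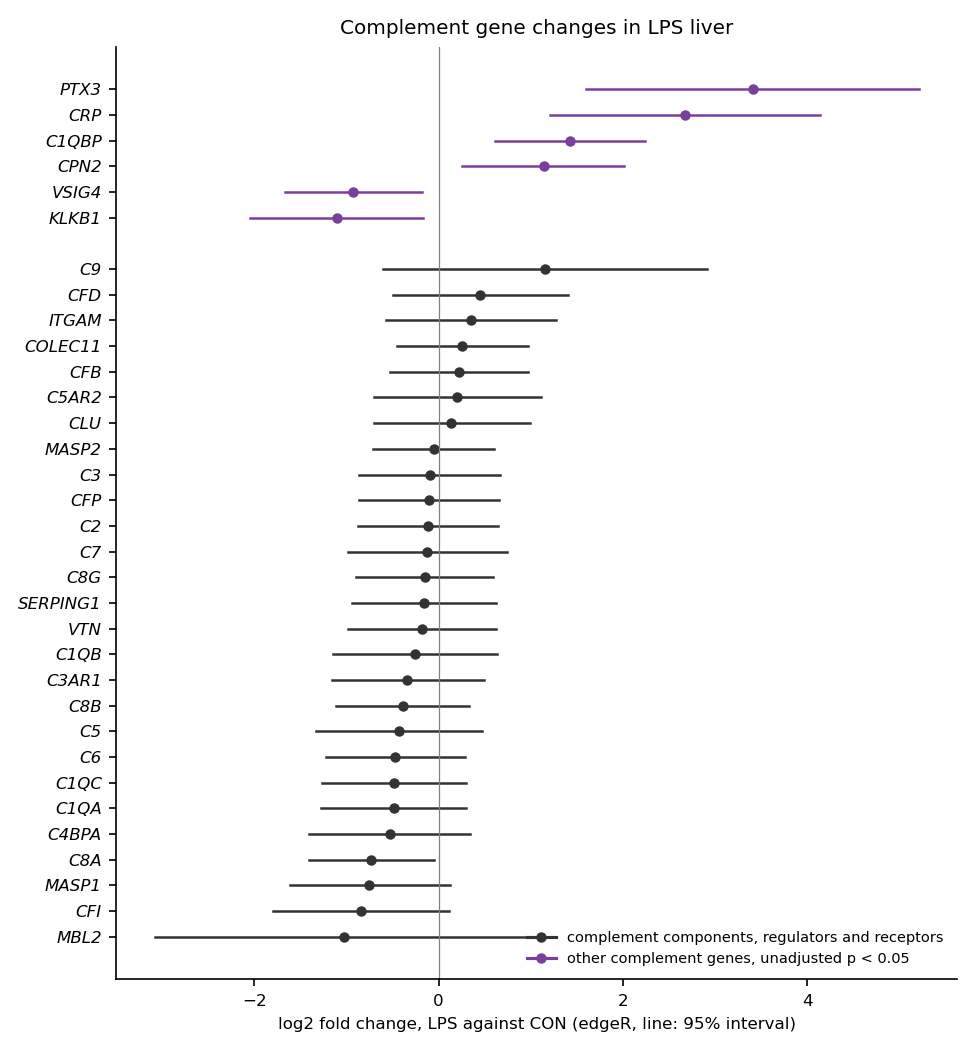
Log2 fold change of the LPS group against the CON group from edgeR, with its 95% interval, for the 27 complement genes (black) and 6 other complement genes with an unadjusted p below 0.05 (purple). The interval of C8A ends just below 0, those of the other 26 black genes cross 0, and PTX3 and CRP lie highest.

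With TMM scaling, the low values were unevenly spread over the LPS libraries. LPS replicate 1 had the lowest of the 6 values in 17 of the 27 genes, while it was lowest in 23.2% of all tested genes. The median deviation of the 27 genes from the CON mean, on the scale of log2(CPM + 0.5), was -0.59 in that library, -0.14 in LPS replicate 2 and -0.01 for LPS replicate 3, against -0.05, -0.01 and -0.03 over all tested genes. The summed TMM-scaled CPM of 10 hepatocyte genes was in the same order, at 42102, 52094 and 85221 in LPS replicates 1, 2 and 3, with 67330 to 86892 in the CON group. The place of LPS replicate 3 in this sum depends on its TMM factor of 0.735, and the sum was not computed with scaling to total counts. Of the 10 hepatocyte genes, 7 had lower fitted values in the LPS group and 3 higher. The order of the sum did not hold for ASGR1, at 161, 175 and 103 CPM in LPS replicates 1, 2 and 3, or CYP2E1, at 553, 829 and 444 CPM. Nor did it hold for CPS1 and SERPINA1, while the other genes of the list followed it. The part of this marker difference in the complement values was not tested. Without LPS replicate 1, 16 of the 27 genes were lower with a median of -0.11, and without LPS replicate 3, 23 were lower with a median of -0.33. As a share of total counts, the 27 genes held 2.68%, 3.73% and 3.43% in LPS replicates 1, 2 and 3, and 3.86% to 4.07% in CON libraries. Scaled to total counts, LPS replicate 3 was the lowest library for some genes, such as C8A, at 223 CPM against 231 in LPS replicate 1. LPS replicate 1 was the lowest for others, such as C3, at 11345 CPM against 14069.6 in LPS replicate 3.

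**Figure D3:**
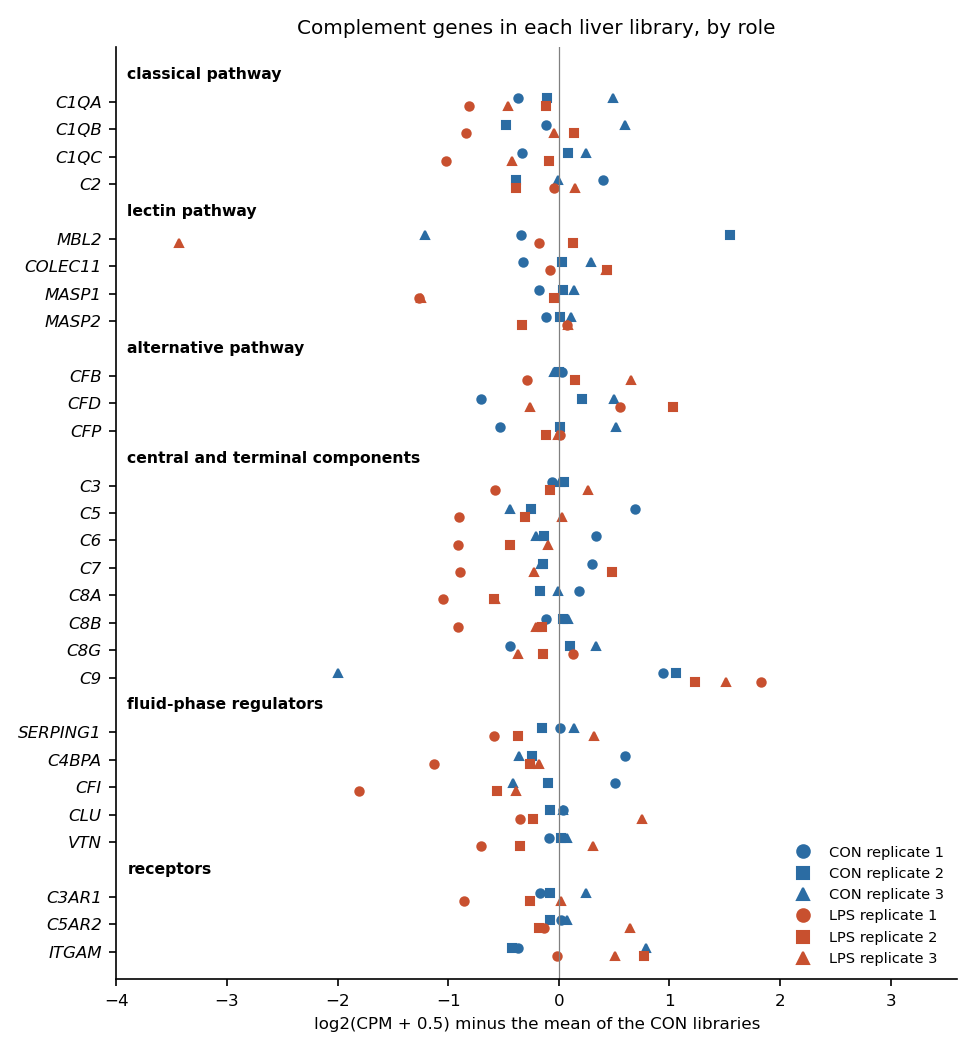
Difference of log2(CPM + 0.5) in each library from the mean of the CON libraries, for the 27 complement genes grouped by role. Points are libraries, with CON replicates in blue and LPS replicates in red. With the TMM scaling shown, LPS replicate 1 (red circles) lies left of the other libraries in 17 genes.

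Among the central and terminal components, 7 of 8 genes had lower fitted values after LPS and 1 higher, and the median log2 difference was -0.27. C3 (chromosome 2, 72431499 to 72528112, plus strand) held 15341, 16579 and 16183 CPM in CON replicates 1, 2 and 3, and 10757, 15146 and 19180 CPM in LPS replicates 1, 2 and 3. With this scaling LPS replicate 3 lay above the CON libraries and the other LPS libraries below them. Scaled to total counts, LPS replicate 3 held 14069.6 CPM, below the CON range of 15811 to 17904, and LPS replicate 2, at 16825, lay within it. The log2 fold change was -0.09 (SE 0.34, 95% interval -0.86 to 0.67, edgeR adjusted p = 0.938), and it was 0.11 without LPS replicate 1. C3 alone took 1.58% to 1.79% of the counts of CON libraries and 1.13% to 1.68% of those of LPS libraries.

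C8 is made of 3 chains, of which C8A and C8B lie next to each other and C8G elsewhere. C8A (chromosome 6, 155464852 to 155530472, minus strand) held 514, 404 and 450.2 CPM in the CON libraries and 219, 301 and 304 CPM in the LPS libraries. All LPS values were below all CON values under both scalings, which with TMM held for 9.8% of all tested genes. The log2 fold change was -0.73 (SE 0.31, 95% interval -1.41 to -0.05), with an unadjusted p of 0.0381 and an edgeR adjusted p of 0.368. C8B (chromosome 6, 155387142 to 155458586, plus strand) also had its LPS values, 244, 411 and 394 CPM, below its CON values of 419, 470.1 and 484 CPM. The gap was narrow, at 411 against 419 CPM, and closed with scaling to total counts, at 456 against 455 CPM, and the log2 fold change was -0.39 (SE 0.32, 95% interval -1.11 to 0.33, edgeR adjusted p = 0.657). C8G, whose product binds the C8A chain, ranged from 365 to 626 CPM in the CON group and from 382 to 539 CPM in the LPS group. The ratio of C8A to C8G within a library overlapped between the groups.

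C9, which forms the ring of the membrane attack complex, had all LPS values above all CON values, as 6.52% of all tested genes did, but overlapped when scaled to total counts. The row (chromosome 16, 24525394 to 24588030, minus strand) held 4.83, 5.31 and 0.198 CPM in the CON libraries and 9.38, 6.05 and 7.44 CPM in the LPS libraries. These values rest on 2 to 54 reads in the CON group and 37 to 109 reads in the LPS group, and on a row that shares exons with DAB2. The log2 fold change was 1.16 (SE 0.78, 95% interval -0.60 to 2.91, edgeR adjusted p = 0.580) and 0.61 without CON replicate 3. The remaining genes overlapped: C5 at 310.3 to 679 CPM in the CON group and 225 to 432 CPM in the LPS group, C6 at 265 to 389 and 163 to 286 CPM, and C7 at 100.2 to 138 and 60.2 to 156 CPM.

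**Figure D4:**
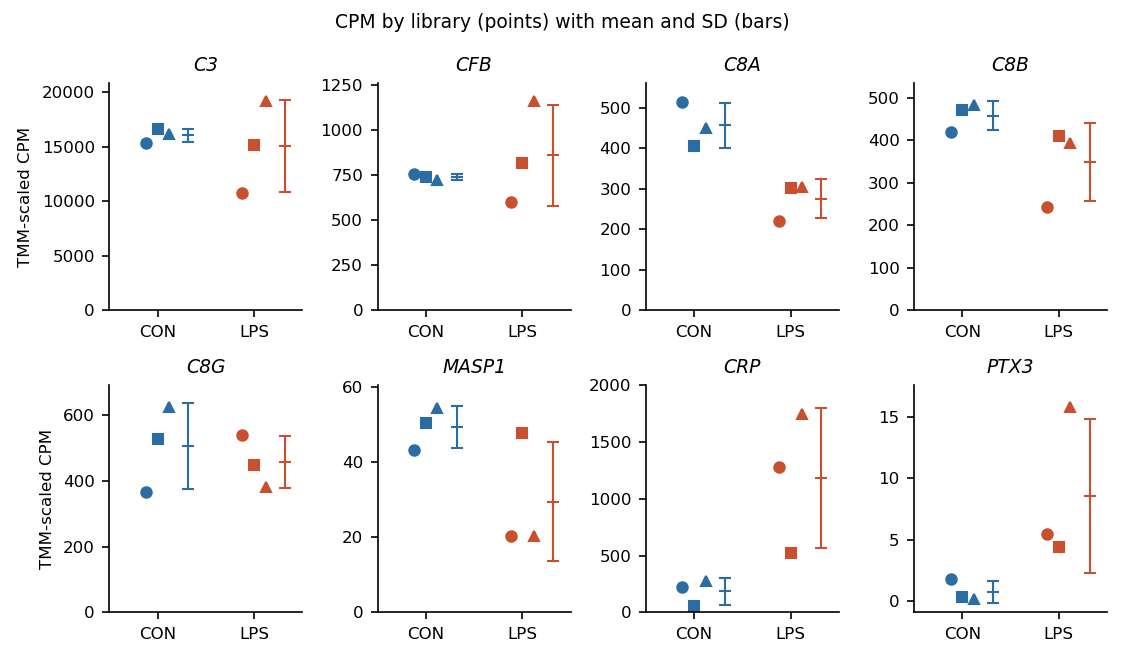
TMM-scaled CPM of C3, CFB, C8A, C8B, C8G, MASP1, CRP and PTX3 in each library (points) with the mean and SD of 3 libraries beside them (bars). LPS and CON libraries overlap for C3, CFB, C8G and MASP1, lie apart downward for C8A and (but not when scaled to total counts) C8B, and lie apart upward for CRP and PTX3.

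The classical pathway genes with a row were the C1q chains and C2, the protease that pairs with C4. All 4 had lower fitted values after LPS and none passed the test, and their median log2 difference was -0.37. C1QC (chromosome 6, 80592478 to 80597459, plus strand) held 437, 583 and 653 CPM in the CON libraries and 272, 518 and 411 CPM in the LPS libraries. LPS replicate 2 lay within the CON values and the other LPS libraries below them. The log2 fold change was -0.48 (SE 0.35, 95% interval -1.26 to 0.30, edgeR adjusted p = 0.612). C1QA ranged from 381 to 694 CPM in the CON group and from 281 to 456 CPM in the LPS group, and C1QB from 514 to 1090.3 and from 401 to 794 CPM. C2 was lower by 0.11 on the log2 scale, at 13.4 to 23.5 CPM in the CON group and 13.4 to 19.7 CPM in the LPS group.

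Markers of the cells that make C1q moved in part with these values. Of 9 tested genes in a list of 10 Kupffer cell or macrophage markers, 8 were lower and CD14 was higher, with a median log2 difference of -0.54, and LYZ was at 0 in every library. The list summed to 1063 to 1649 CPM in CON libraries and 1362 to 2747 CPM in LPS libraries. Without CD14, singled out after its values were seen, the sum was 516 to 828 CPM and 419 to 557 CPM. The part of this difference in the C1q values was not tested.

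In the lectin pathway, 3 of 4 genes had lower fitted values and COLEC11, a collectin that recognises sugars, had higher ones, at 109 to 166 CPM in the CON group and 129 to 185 CPM in the LPS group. MASP1, a protease bound to these recognition proteins, lies on chromosome 13 (124955029 to 125054463, minus strand). Its CON libraries held 43.3, 50.5 and 54.3 CPM. Its LPS libraries held 20.3, 47.8 and 20.3 CPM, so LPS replicates 1 and 3 lay below every CON library and LPS replicate 2 within the CON values. The log2 fold change was -0.75 (SE 0.39, 95% interval -1.61 to 0.12, edgeR adjusted p = 0.470). Without LPS replicate 2 it was -1.28 with an edgeR adjusted p of 0.0441, and MASP1 was then the only member called. That fit called 3.45% of 13632 genes lower and 3.76% higher, and the adjusted p of MASP1 ranged from 0.0441 to 0.818 over the alternatives.

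MASP2, the protease that cleaves C4 and C2, ranged from 231 to 272 CPM in the CON group and from 199 to 266 CPM in the LPS group. Within each library the log2 ratio of MASP1 to MASP2 was -2.41, -2.33 and -2.32 in CON libraries and -3.70, -2.06 and -3.71 in LPS libraries, so the ratio split as MASP1 did. MBL2 (mannose-binding lectin) was the most variable gene of the pathway, with 14.9 to 104 CPM in the CON group and 2.80 to 38.4 CPM in the LPS group. Its log2 fold change was -1.03 (95% interval -3.08 to 1.02), and 0.16 without CON replicate 2.

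In the alternative pathway, CFB (factor B, which forms the C3 convertase) and CFD (factor D, which cleaves factor B) had higher fitted values in the LPS group and CFP (properdin, which stabilises the convertase) lower ones. CFB ranged from 719 to 753 CPM in the CON group and from 602 to 1159 CPM in the LPS group, with a log2 fold change of 0.22 that was -0.04 without LPS replicate 3. CFD ranged from 20.4 to 47.5 CPM and from 27.9 to 69.0 CPM, and CFP from 105 to 219 CPM and from 141 to 154 CPM. The within-library log2 ratio of C3 to CFB, a pair singled out after its values were seen, was 4.35 to 4.49 in CON libraries and 4.05 to 4.22 in LPS libraries. Several gene pairs were read in this way, and all except this pair and CRP to C3, given below, overlapped between the groups. The share of such splits over all gene pairs was not computed. The ratio of C3 to CFB is given as a description because of the exons that CFB shares.

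Among the fluid-phase regulators, 4 of 5 genes had lower fitted values and CLU higher ones. VTN (chromosome 12, 44617499 to 44660271, minus strand) held 6927, 7492 and 7767 CPM in the CON libraries and 4543, 5808 and 9183 CPM in the LPS libraries. CLU (chromosome 14, 11336590 to 11352475, minus strand) held 5227, 4807 and 5218 CPM and then 3984, 4330.0 and 8549.8 CPM. SERPING1 (chromosome 2, 13324158 to 13338663, minus strand) held 3233, 2902 and 3542 CPM and then 2140.3, 2494 and 4023 CPM. In all 3 genes LPS replicates 1 and 2 were below every CON library and LPS replicate 3 above every one of them, a position that depended on the TMM factor of that library. Scaled to total counts, LPS replicate 3 held 6736 CPM of VTN and 2951 CPM of SERPING1, below the CON ranges of 7517 to 8091 and 3134 to 3508 CPM, and 6272 CPM of CLU, above 5098 to 5672 CPM. The log2 fold changes were -0.18 for VTN (SE 0.36, 95% interval -0.98 to 0.62), 0.14 for CLU (SE 0.38, 95% interval -0.70 to 0.99) and -0.16 for SERPING1 (SE 0.35, 95% interval -0.94 to 0.62). CLU changed sign, to -0.06, when libraries were scaled to total counts, and it was -0.27 without LPS replicate 3.

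CFI (factor I, the protease that inactivates C3b and C4b) had the lowest log2 fold change of the regulators, with 335 to 631 CPM in the CON group and 127 to 339.9 CPM in the LPS group. Its log2 fold change was -0.84 (SE 0.43, 95% interval -1.80 to 0.11, edgeR adjusted p = 0.463), and it stayed below 0 in every alternative, between -1.08 and -0.51. C4BPA, a chain of the C4b-binding protein that serves as a cofactor of factor I, ranged from 227 to 440.0 CPM in the CON group and from 133 to 256 CPM in the LPS group, with a log2 fold change of -0.53.

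The 3 receptor genes with a row were of low level. C3AR1, the receptor for C3a, ranged from 8.04 to 10.9 CPM in the CON group and from 4.80 to 9.22 CPM in the LPS group. C5AR2, another receptor for C5a, ranged from 4.06 to 4.55 CPM and from 3.76 to 7.03 CPM. The row of ITGAM, which is carried by myeloid cells, may hold reads of another gene and ranged from 15.6 to 36.7 CPM and from 20.7 to 36.3 CPM. Beside these, a list of 13 neutrophil markers has 8 genes with a row. Of these, 5 were tested and had higher fitted values after LPS, and S100A8 was called, but the filter kept S100A8, at 0.312 to 0.396 CPM in CON libraries, through its LPS libraries. Of the 3 untested genes, MMP8 was at 0 in every CON library and at 0.818 to 18.5 CPM in LPS libraries, PGLYRP1 overlapped, and MPO was at 0.781 to 1.16 and 0.273 to 1.09 CPM. The list summed to 22.2 to 31.9 CPM in CON libraries and 87.4 to 318 CPM in LPS libraries. The part of this in the receptor values was not tested.

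Other genes with a known tie to complement were read from a list of 38, of which 23 have a row and 20 were tested. Of these, 9 had higher and 11 lower fitted values, with a median log2 difference of -0.12, and none was called by edgeR. At an unadjusted p below 0.05, PTX3, CRP, C1QBP, CPN2 and CALR were higher and VSIG4 and KLKB1 lower, where 6.18% and 6.33% of all tested genes were. In the same 5 genes no LPS library overlapped the lower CON libraries, and no LPS library reached the CON libraries in VSIG4, KLKB1, C1RL, CD93 and PLG. Over all tested genes these shares were 6.52% and 9.8%. CALR, C1RL, CD93 and PLG are named after their values were seen.

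The highest log2 fold changes of the list were those of the pentraxins PTX3 and CRP, pattern recognition proteins that bind C1q. CRP, an acute-phase protein of hepatocytes, held 225, 52.3 and 279 CPM in the CON libraries and 1285, 525 and 1745 CPM in the LPS libraries. The groups did not overlap, and the log2 fold change was 2.67 (SE 0.65, 95% interval 1.21 to 4.14, edgeR adjusted p = 0.179). PTX3, made by myeloid and endothelial cells, held 1.79, 0.312 and 0.198 CPM and then 5.45, 4.42 and 15.8 CPM, with a log2 fold change of 3.41 (SE 0.81, 95% interval 1.60 to 5.21, edgeR adjusted p = 0.163). That value was 5.06 without CON replicate 1 and 2.60 without LPS replicate 3. PTX3 had 20, 2 and 2 reads in the CON libraries and 25, 27 and 231 in the LPS libraries, so it passed the filter through the LPS group, and it was not tested where at least 10 counts were asked of every library. C1QBP, a mitochondrial protein that binds the globular heads of C1q, held 68.4, 65.3 and 81.5 CPM and then 178, 122 and 279 CPM, with a log2 fold change of 1.43 (SE 0.37, edgeR adjusted p = 0.198).

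These 3 genes were called under DESeq2, which called 2.02% of the 12774 genes higher, with DESeq2 adjusted p of 0.000512 for CRP, 0.000676 for PTX3 and 0.0149 for C1QBP. They were also called by edgeR without LPS replicate 2, a fit that called 3.76% of 13632 genes higher. The log2 ratio of CRP to C3 within a library, a pair singled out after its values were seen, was -8.31 to -5.86 in CON libraries and -4.85 to -3.06 in LPS libraries.

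CPN2, the regulatory subunit of the carboxypeptidase N that inactivates C3a and C5a, held 72.5, 91.2 and 106 CPM in the CON libraries and 308, 131 and 153 CPM in the LPS libraries. Its log2 fold change was 1.14 (SE 0.39, edgeR adjusted p = 0.282). VSIG4, a complement receptor of Kupffer cells, held 25.4, 29.4 and 36.1 CPM and then 11.3, 20.3 and 16.0 CPM, with a log2 fold change of -0.93 (SE 0.33, edgeR adjusted p = 0.307). KLKB1, the plasma prekallikrein that C1 inhibitor controls, held 214, 188 and 129 CPM and then 42.5, 81.0 and 123 CPM, with a log2 fold change of -1.10 (SE 0.42, edgeR adjusted p = 0.333). In each of the last 3 genes the LPS libraries lay on 1 side of the CON libraries.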

How the data were processed

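RNA-seq of input liver RNA was analysed in 3 CON and 3 LPS libraries. The authors deposited raw read counts for 31908 Ensembl pig genes, with exon positions and summed exon length. The submitters' processing notes name cutadapt 1.9.3 and HISAT2, and as genome builds those of chicken and human. The pig build, the counting program and its strand setting are not given in the sources at hand, and coordinates are those of the deposited table. The labels list 2 sequencing entries for each of CON replicates 1 and 2, which have 1 column apiece. No library repeated another, since every pair differed beyond sampling noise (lowest chi-square per gene 46.8).

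The test was that of edgeR 4.0.16 in R 4.3.3, with filterByExpr at a minimum count of 10, TMM scaling, glmQLFit with robust settings and glmQLFTest, with Benjamini-Hochberg adjustment over all 12774 tested genes. A gene was called where its adjusted p was under 0.05 and it changed more than 1.5-fold. The paper's methods give a single unpaired test of group means for all data and none for RNA-seq counts in particular. The SE is |log2 fold change| over the square root of the quasi-likelihood F. With 3 libraries against 3, the smallest two-sided p that an exact permutation test can reach is 0.1, so none is reported. Alternatives tried were DESeq2 1.42.0, voom with limma 3.58.1, RLE or total-count scaling, no filter or a minimum of 10 counts in each library, a replicate block, and leaving out each library.

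Values were given per library for members whose LPS values all lay on 1 side of the CON values, that had an unadjusted p below 0.05, that an alternative called, or that were among the 5 highest per length. Of the other complement genes, the 6 with the lowest unadjusted p were named. The members, lists and rules were chosen with earlier results of these data known. The marker lists numbered 7. Those not given in the report summed, in the CON group and then the LPS group, to 24.6 to 79.4 and 14.6 to 33.5 CPM for B or plasma cells, 102 to 126 and 51.9 to 117 CPM for T or NK cells, 137 to 169 and 112 to 149 CPM for endothelial cells, and 579.6 to 849 and 432 to 941 CPM for stellate cells or cholangiocytes. Promoter motifs were not searched, and no sequence is printed.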

Additional observations from a re-analysis of the deposited data

How the results depend on the processing

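The number of genes called by edgeR over all tested genes, 7, was 404 under DESeq2, 885 with no filter on low counts, 51 with the replicate block, 12 with scaling to total counts, 2 under limma-voom and 0 with at least 10 counts in every library. It ranged from 0 to 982 when a library was left out, with 982 without LPS replicate 2 and 58 without LPS replicate 3. The number of called complement members, 0, ranged from 0 to 1 when a library was left out (MASP1, without LPS replicate 2) and was 0 under every other alternative. The number called in the list of other complement genes, 0, was 3 under DESeq2, 3 with no filter, 1 (CRP) with the replicate block, and 0 to 3 when a library was left out. Same-numbered libraries had deviations correlated at -0.26, 0.22 and 0.03, and not every library correlated best with its own number, so the numbers were not taken to pair the samples. The block changed no member's call. CLU, at 0.14 on the log2 scale, was -0.06 with scaling to total counts.

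When a library was left out, 13 members changed sign at least once. Their log2 fold changes ranged from -0.47 to 0.13 for C1QB, from -0.29 to 0.11 for C2, from -0.29 to 0.11 for C3, from -0.16 to 0.37 for C5AR2, from -0.53 to 0.16 for C7, from -0.34 to 0.05 for C8G, from -0.04 to 0.43 for CFB, from -0.33 to 0.22 for CFP, from -0.27 to 0.35 for CLU, from -0.12 to 0.07 for MASP2, from -1.58 to 0.16 for MBL2, from -0.46 to 0.03 for SERPING1 and from -0.50 to 0.03 for VTN. Over the 13 alternatives, 14 of the 27 members kept their sign, 10 lower and 4 higher. With CPM scaled to total counts, the CON mean was 16787 for C3 and 772 for CFB, and 4 members changed place in the order of levels. Counting error limits C9, with 2 reads in CON replicate 3.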
